A study of Mus musculus with 27 samples.

Results

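The nuclear-encoded subunits of the mitochondrial respiratory chain were followed in transduced nuclei sorted from the mouse motor cortex. Members were every gene of the count table whose symbol began with Ndufa, Ndufb, Ndufc, Ndufs or Ndufv and a digit, was one of Sdha to Sdhd, or began with Uqcr, Cox4 to Cox8 or Atp5, without Ndufa4l2 and without pseudogenes. This gave 88 genes of 39338, of which 41 belonged by name to complex I, 4 to complex II, 8 to complex III, 18 to complex IV and 17 to complex V. In all, 82 of the 88 passed the filter on low counts, among 21768 genes tested.

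The 27 libraries formed 6 groups of 2 genotypes and 3 treatments. C9-BACexp is a transgenic line in which human C9ORF72 with an expanded repeat is present in addition to the mouse gene, and the study describes its movement as outwardly normal. C57BL/6J animals were their littermates without the transgene. At 6 weeks of age the motor cortex was injected with PHP.eB AAV vectors, one carrying the RNA-targeting nuclease RfxCas13d (in the study's methods its high-fidelity variant) with a CRISPR RNA and another carrying EGFP-KASH, a green fluorescent protein anchored to the nuclear membrane and found largely in neurons, both driven by the ubiquitous CAG promoter, and EGFP-positive nuclei were sorted 2 months later. The CRISPR RNA was crRNA-13, which targets C9ORF72, or NTG, a non-targeting control, while the EGFP-KASH only groups received no nuclease, and their age and interval are not given in the sources used here. The groups held 3 (EGFP-KASH only), 6 (NTG) and 6 (crRNA-13) libraries of C9-BACexp and 4, 5 and 3 of C57BL/6J.

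The respiratory chain sits in the inner mitochondrial membrane. Complex I takes electrons from NADH and complex II takes them from succinate, complex III passes them to cytochrome c, complex IV hands them to oxygen, and complex V, the ATP synthase, uses the proton gradient that results to make ATP. Most subunits are encoded in the nucleus, and neurons depend heavily on this pathway for the energy that signalling costs. The subunits encoded in mitochondrial DNA were not analysed here, and since the RNA came from nuclei, the values below describe nuclear RNA.

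Library totals ran from 21508829 to 36777972 counts. Levels below are in CPM, the usual count per library size, with library sizes scaled by TMM. The human C9ORF72 transcripts summed to 64.1 to 103 CPM in every C9-BACexp library and to at most 0.436 CPM in C57BL/6J libraries, as the genotype labels state. All 6 general neuron markers were found in every library. Markers of several other cell types differed with genotype. The 6 oligodendrocyte markers summed to 945 to 2073 CPM in C9-BACexp NTG and 312 to 1560 CPM in C57BL/6J NTG. All 6 were called higher in C9-BACexp with NTG, where 3.96% of all tested genes were. With EGFP-KASH only 3 of 6 were, where 1.53% of all tested genes were. With crRNA-13 their sums also overlapped, at 522 to 3619 CPM in C9-BACexp and 709 to 1297 CPM in C57BL/6J. The 6 striatal projection neuron markers summed to 95.8 to 966 CPM in C9-BACexp NTG against 61.7 to 77.7 CPM in C57BL/6J NTG. The 966 CPM was in C9-BACexp NTG replicate 6, and the next library of that group had 264 CPM. With EGFP-KASH only the genotypes overlapped, at 86.7 to 332 CPM and 59.6 to 168 CPM. With crRNA-13 they did not, at 87.5 to 361 CPM and 75.1 to 84.4 CPM. Of 6 astrocyte markers, 3 were called lower in C9-BACexp with NTG, where 2.52% of all tested genes were. The 4 endothelial markers summed to 6.44 to 9.71 CPM in C9-BACexp EGFP-KASH only and 10.5 to 17.7 CPM in C57BL/6J EGFP-KASH only. With NTG they overlapped, at 4.78 to 9.03 CPM and 6.45 to 20.0 CPM. The part of these cell types in the results below was not tested. In such bulk samples fewer cells of a type and less RNA per cell cannot be told apart.

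Together the 88 genes gave 0.0851% to 0.176% of a library's counts. Their summed level was 895 to 1691 CPM, and the mean was 1077 ± 124 CPM (SD, n = 6) in C9-BACexp NTG against 1224 ± 286 CPM (n = 5) in C57BL/6J NTG. With EGFP-KASH only it was 1043 ± 38.5 CPM (n = 3) in C9-BACexp against 1272 ± 347 CPM (n = 4) in C57BL/6J, and with crRNA-13 it was 1077 ± 187 CPM (n = 6) against 1073 ± 90.7 CPM (n = 3). The groups overlapped in each pair. The C57BL/6J NTG and EGFP-KASH only groups were spread much more widely than the C9-BACexp ones, and each held libraries at both ends of the whole range. Complex IV followed the same pattern, with 108 ± 21.8 CPM in C9-BACexp NTG and 136 ± 51.8 CPM in C57BL/6J NTG, whereas complex II was flatter, with 103 ± 8.24 CPM and 110 ± 17.8 CPM.

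**Figure D1:**
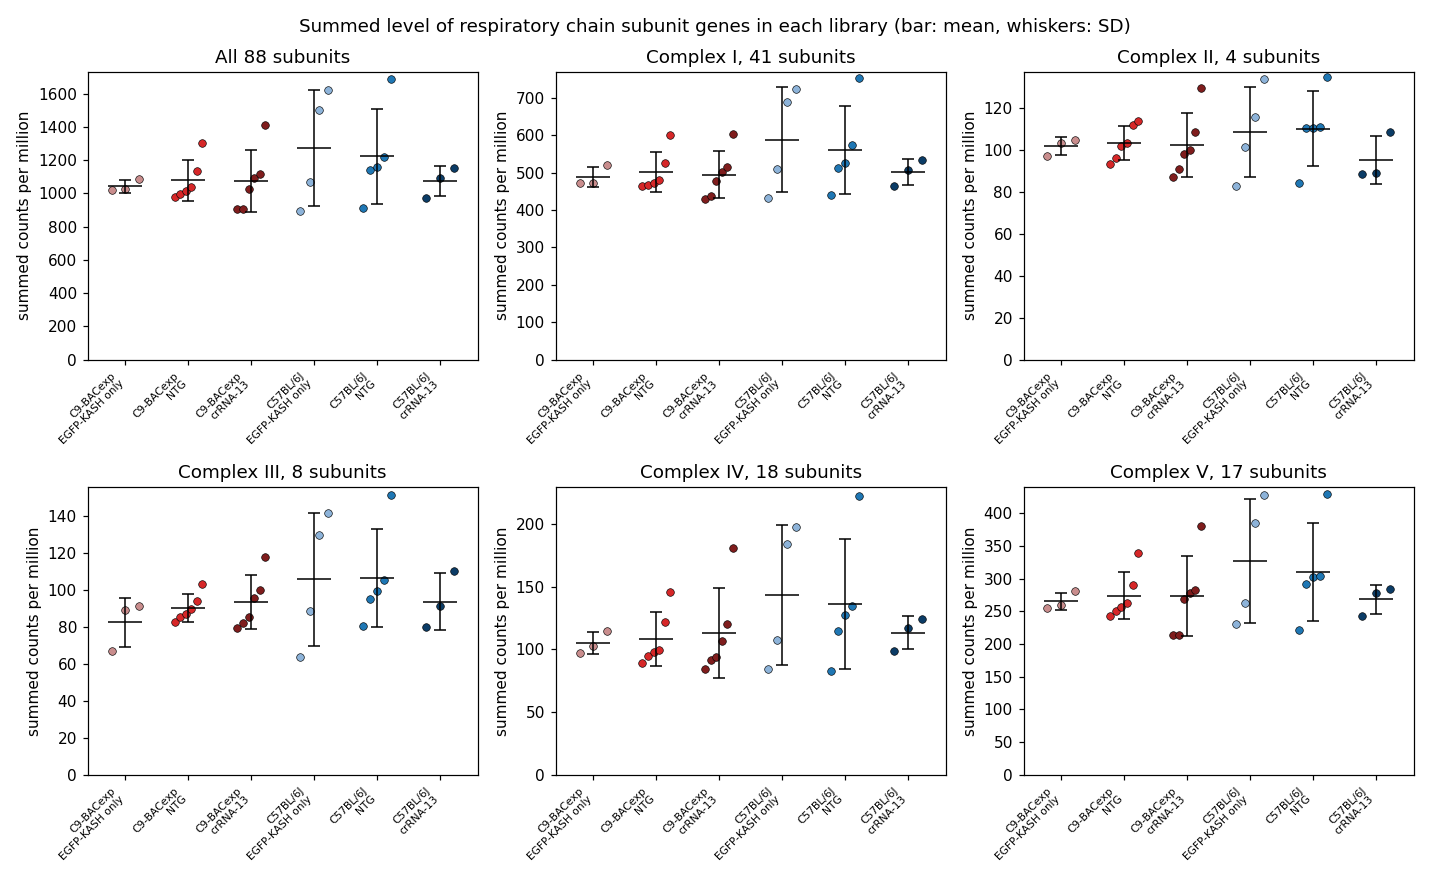
Summed CPM (y axis, from 0) of all 88 subunit genes and of each complex, 1 point per library, by group (x axis). Horizontal bars are group means and whiskers are SD. The widest spread is in C57BL/6J EGFP-KASH only (895 to 1624 CPM for all subunits) and C57BL/6J NTG (910 to 1691 CPM).

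Subunits rose and fell together from library to library. In C57BL/6J NTG replicate 5, which had the highest summed level of all (1691 CPM), 74 of the 82 tested subunits lay above their group mean on the log2 scale, and their mean deviation was 0.60. C57BL/6J EGFP-KASH only replicates 4 and 5 had 73 and 78 subunits above the group mean, C9-BACexp crRNA-13 replicate 1 had 71, and C9-BACexp NTG replicate 1 had 75. At the other end, 5 subunits lay above the group mean in C57BL/6J NTG replicate 3 and 6 in C57BL/6J EGFP-KASH only replicate 2. Over the 27 libraries, with group means removed, a subunit's Pearson correlation with the mean of the other subunits had a median of 0.68 (range 0.0080 to 0.94), and 64 of 82 were above 0.5. The same correlation of the 21686 other tested genes with the subunits' mean had a median of -0.0094, and 17.2% were above 0.5. These correlations describe libraries that also share depth and composition. The least coordinated subunits were Cox4i2, a second isoform of subunit 4 with very low counts, and Ndufv1, the flavin-binding core subunit of complex I, whose within-group SD was only 0.15 on the log2 scale.

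**Figure D2:**
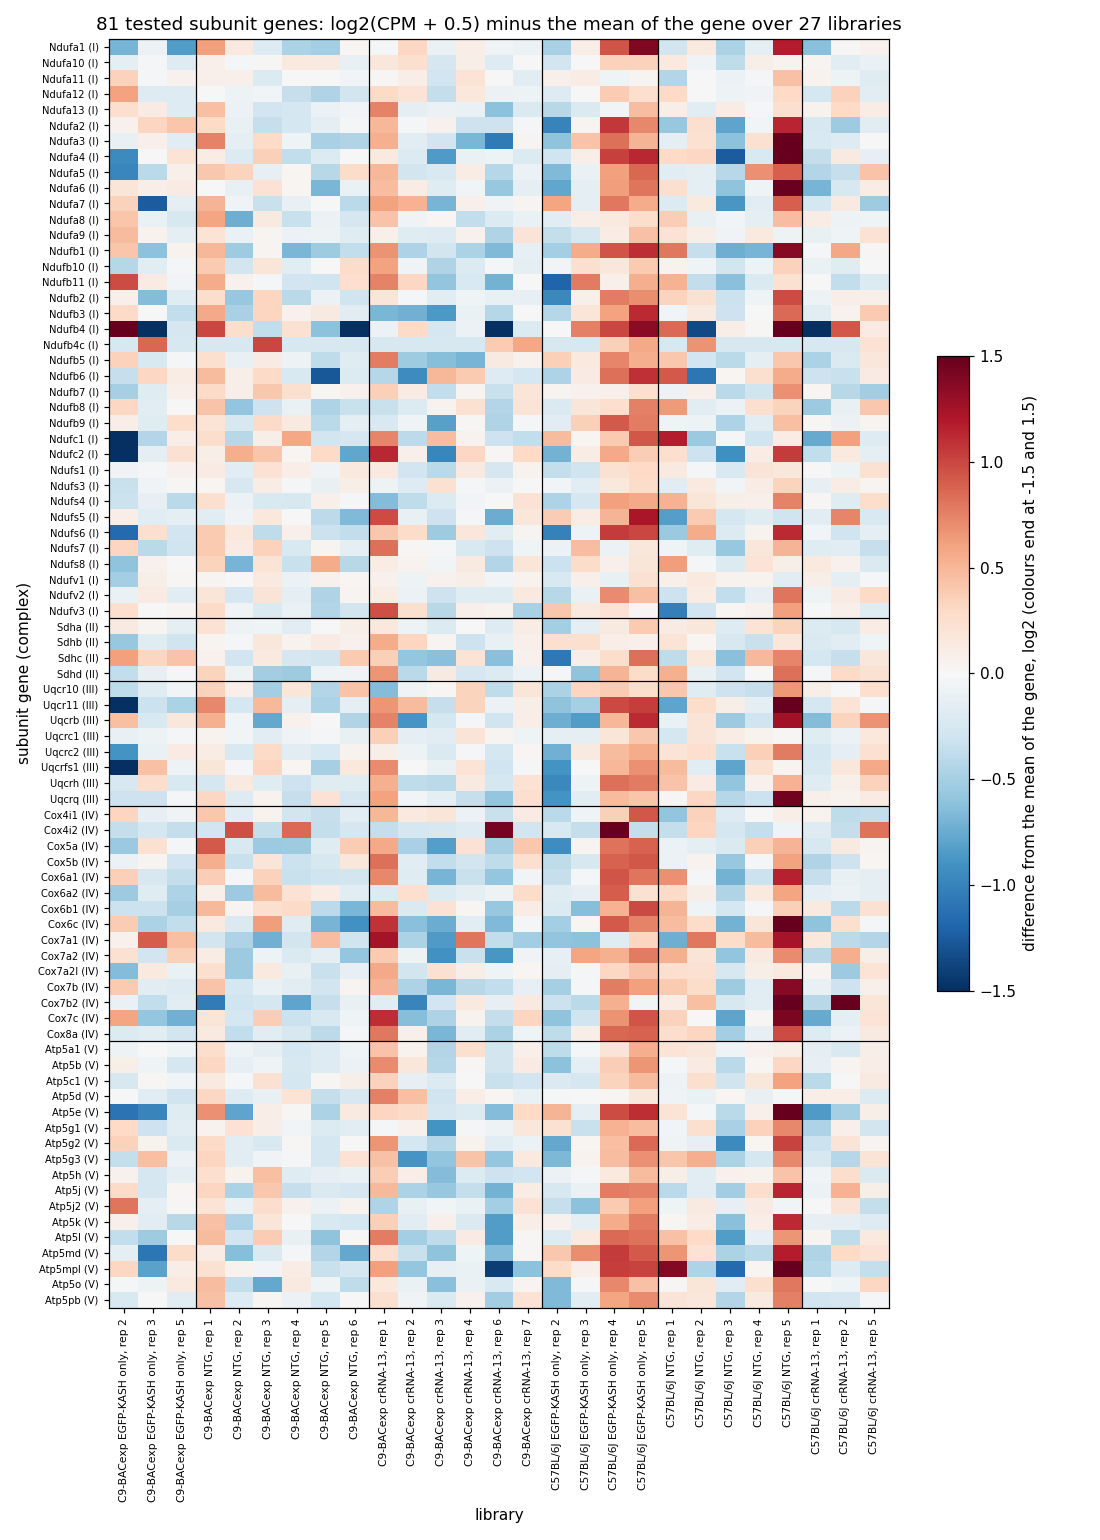
Tested subunit genes (81 rows, by complex) in each of 27 libraries (columns, by group), as log2(CPM + 0.5) minus the mean of the gene over all libraries (colours are capped at both ends). Red columns are C57BL/6J EGFP-KASH only replicates 4 and 5, C57BL/6J NTG replicate 5 and, more weakly, replicate 1 of C9-BACexp crRNA-13 and of C9-BACexp NTG.

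The 86 cytosolic ribosomal protein genes, another large set of short, widely expressed genes, moved in the same libraries. Their summed level was 503 to 1037 CPM, and the 5 libraries with the most subunit RNA were also the 5 with the most ribosomal protein RNA, at 797 CPM or more where the next library had 711 CPM. Of the 83 that were tested, 71 (85.5%) correlated above 0.5 with the subunits' mean. Other measures moved with these 5 libraries. The 11 nuclear long non-coding RNAs summed to the lowest value of the group in 4 of them, at 21529 CPM in C9-BACexp crRNA-13 replicate 1, 26472 CPM in C57BL/6J NTG replicate 5, 27025 CPM in C9-BACexp NTG replicate 1 and 27855 CPM in C57BL/6J EGFP-KASH only replicate 4, where all 27 libraries reached up to 33743 CPM. Excitatory neuron markers were the lowest of the group in the same 4 libraries, down to 1016 CPM in C57BL/6J NTG replicate 5, against up to 2168 CPM in its group. Oligodendrocyte markers were the highest of the group in 4 of the 5, at 3619 CPM in C9-BACexp crRNA-13 replicate 1, 2073 CPM in C9-BACexp NTG replicate 1, 1560 CPM in C57BL/6J NTG replicate 5 and 1222 CPM in C57BL/6J EGFP-KASH only replicate 5. The 4 highest sums of inhibitory neuron markers in all 27 libraries were also in this set, at 217 CPM in C57BL/6J NTG replicate 5, 206 and 200 CPM in C57BL/6J EGFP-KASH only replicates 5 and 4 and 205 CPM in C9-BACexp crRNA-13 replicate 1, and so were the 3 highest sums of microglia markers (121, 82.2 and 81.4 CPM). The part of these differences in the subunits' levels was not tested.

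**Figure D3:**
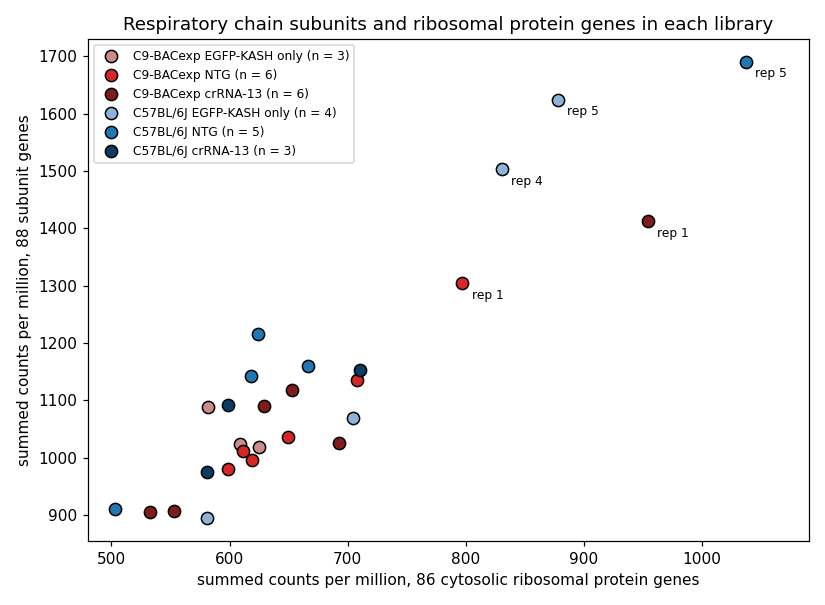
Summed CPM of the 88 subunit genes (y axis) against summed CPM of 86 ribosomal protein genes (x axis), 1 point per library, coloured by group. The axes do not start at 0. The 5 labelled libraries, at 1304 CPM of subunit RNA or more, stand apart on both axes.

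Some short sequence features, which the choice of members did not use, stood in promoters of a minority of these genes, but more often than in all genes. RefSeq windows from 250 bases before to 50 bases after each transcription start (build GRCm38.p6) were matched by gene ID for 70 of the 88 genes, and letters were searched on both strands. The core bound by the factor NRF1 (GCGCA, any base, GCGC) stood in 17 of 70 genes (24.3%), against 5.19% of all 27025 genes with a window and 8.2% of the tested ones. CCGGAAG, the ETS-type core bound by GA-binding protein, stood in 24.3% of the subunit genes, 9.93% of all genes and 14.5% of tested genes. AANATGGCG, the YY1 core, stood in 14.3%, 2.76% and 4.23%. The common GGGCGG box and CCAAT box were not set apart in this way, at 40% and 42.9% of subunit genes against 38.2% and 41.1% of all genes and 55% and 41.9% of tested genes, nor was the TATAAA box, at 11.4% against 15.7%. No window was given for the other 18 members, and no similar set, such as the ribosomal protein genes, was compared. A match is a description of the letters and shows no binding.

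The ETS letters are shown for 4 subunit genes called in a genotype comparison below, and the NRF1 letters for 2 subunits of complex II, with the motifs in capitals, 5′ to 3′ along the gene, which is on the minus strand in all 6. Atp5e is at chr2:174464182-174464218, Uqcr11 at chr10:80406866-80406902, Atp5j at chr16:84835016-84835079, Atp5l at chr9:44920933-44920969, Sdha at chr13:74350241-74350353 and Sdhd at chr9:50603874-50603943, all upstream of the start site. In Atp5j the first capitals are the YY1 letters, and in Sdhd the second are the ETS letters.
Atp5e: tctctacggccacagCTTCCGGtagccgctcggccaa
Uqcr11: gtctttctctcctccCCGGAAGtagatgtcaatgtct
Atp5j: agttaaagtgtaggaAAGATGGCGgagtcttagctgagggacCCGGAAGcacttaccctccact
Atp5l: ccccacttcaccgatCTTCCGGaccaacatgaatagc
Sdha: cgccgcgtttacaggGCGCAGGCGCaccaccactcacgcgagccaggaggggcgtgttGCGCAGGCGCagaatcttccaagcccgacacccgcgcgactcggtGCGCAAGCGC
Sdhd: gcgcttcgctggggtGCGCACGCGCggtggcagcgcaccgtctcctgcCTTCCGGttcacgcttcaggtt

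The genotype comparison with NTG asks how the transgene changes expression in animals that also received the nuclease with a non-targeting guide. Cox6c and Cox8a, small structural subunits of complex IV, were called lower in C9-BACexp, and no subunit was called higher. A gene is called when edgeR's quasi-likelihood test, fitted with 4 factors of unwanted variation, gives an adjusted p under 0.05 and the fold exceeds 1.2. The test called 6.49% of all tested genes here (2.52% lower, 3.96% higher). The 2 of 82 subunits are below the share called in either direction and near the share called lower. Without the 4 factors no subunit was called in this or any other comparison, while the median differences stayed on the same side of 0 in each genotype comparison. At an unadjusted p under 0.05 there were 15 subunits (18.3%), against 26% of all genes. No subunit had groups that did not overlap, where 1.32% of all genes lay wholly lower and 1.43% wholly higher. On the log2 scale the median difference of the 82 tested subunits was -0.12, against 0.02 for all tested genes, and 66 of 82 (80.5%) were lower, against 48.1% of all genes. Complex III (median -0.21) and complex IV (-0.21) were lower than complex I (-0.10), but differences between complexes were not tested.

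Cox6c, on chromosome 15 (35923634 to 35938392, GRCm39), was at 5.51, 6.46, 9.19, 9.45, 11.99 and 16.8 CPM in the C9-BACexp NTG libraries and at 6.41, 12.3, 13.1, 14.96 and 39.1 CPM in the C57BL/6J NTG libraries. The groups overlapped, and the 39.1 CPM was in C57BL/6J NTG replicate 5. Its log2 fold change was -0.59 (SE 0.15, adjusted p = 0.0390). Cox8a, on chromosome 19 (7192515 to 7194997), was at 7.03 to 10.4 CPM (median of group values 8.11) in C9-BACexp and at 6.41, 8.52, 11.3, 11.9 and 18.9 CPM in C57BL/6J, with a log2 fold change of -0.38 (SE 0.098, adjusted p = 0.0450). The third-ranked subunit was Ndufs4, an accessory subunit of the NADH-oxidising arm of complex I, at 48.3 to 67.8 CPM in C9-BACexp and 60.5 to 95.8 CPM in C57BL/6J (log2 fold change -0.36, SE 0.098, adjusted p = 0.0531). Both calls depended on single libraries. Without C57BL/6J NTG replicate 5 no subunit was called and the median of the subunits was 0.02. The Cox6c call was also lost when C57BL/6J NTG replicate 2 was left out, or any of replicates 2, 4, 5 and 6 of the C9-BACexp NTG group (log2 fold change between -0.88 and -0.23 over all libraries left out in turn, adjusted p up to 0.548), and the Cox8a call when any of replicates 1, 2 and 5 of C57BL/6J NTG was left out, or of replicates 2 to 5 of C9-BACexp NTG (-0.56 to -0.18, adjusted p up to 0.436).

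With EGFP-KASH only, which compares the genotypes without any nuclease, 4 subunits were called lower in C9-BACexp and none higher. They were Cox8a, Sdhb (the iron-sulfur subunit of complex II), Uqcr11 (a small subunit of complex III) and Atp5e (the epsilon subunit in the rotor of the ATP synthase). That is 4 of 82, where 2.73% of all tested genes were called, 1.2% lower and 1.53% higher. At an unadjusted p under 0.05 there were 32 subunits (39%), against 18.8% of all genes. The median log2 difference of the 82 subunits was -0.31 against -0.03 for all tested genes, and 70 of 82 were lower. It was -0.44 in complex IV and -0.11 in complex II. Among subunits assigned to complex I by name, the 31 tested accessory ones had a median of -0.42 and the 7 core ones one of -0.18. The accessory ones include Ndufa4, whose product is named only as mitochondrial complex associated.

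Sdhb, on chromosome 4 (140688502 to 140709380), separated the groups, at 18.9, 22.9 and 24.8 CPM in C9-BACexp and 29.8, 30.5, 33.4 and 33.6 CPM in C57BL/6J (log2 fold change -0.52, SE 0.12, adjusted p = 0.0171). Atp5e, on chromosome 2 (174302861 to 174305906), did so at 0.999, 1.12 and 2.34 CPM against 2.41, 4.07, 5.87 and 6.43 CPM (-1.65, SE 0.41, adjusted p = 0.0332). Ndufs5 and Atp5md were the other subunits whose groups did not overlap, so 4 of 82 lay wholly below, where 2.83% of all tested genes did, and none wholly above, where 3.3% did. Cox8a was at 7.61 to 8.24 CPM in C9-BACexp and at 7.09, 10.00, 17.4 and 17.8 CPM in C57BL/6J (-0.62, SE 0.13, adjusted p = 0.00961). Uqcr11, on chromosome 10 (80236542 to 80242676), was at 0.559, 4.03 and 4.53 CPM against 3.64, 3.94, 12.01 and 12.3 CPM (-1.54, SE 0.39, adjusted p = 0.0396). Here C9-BACexp replicate 2, with 14.2 counts, was far below the other libraries.

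C57BL/6J EGFP-KASH only replicates 4 and 5 were the high libraries for Cox8a, Uqcr11 and Atp5e but not for Sdhb. Without both, chosen after seeing the data, the median difference of the subunits was 0.05, and the log2 fold change of Cox8a was -0.090, of Uqcr11 -0.69 and of Atp5e -1.25. The 1 subunit still called was Sdhb (-0.60, adjusted p = 0.0374). Left out alone, replicate 5 took the median to -0.19 and replicate 2 took it to -0.48. The Cox8a call ended without replicate 4 or 5 (adjusted p up to 0.110), the Sdhb call without C9-BACexp replicate 2 (adjusted p up to 0.145), the Uqcr11 call without C9-BACexp replicate 2 or 5 or C57BL/6J replicate 4 or 5 (0.232), and the Atp5e call without C9-BACexp replicate 2 or 3 or C57BL/6J replicate 4 or 5 (0.1003).

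With crRNA-13, no subunit was called by edgeR between the genotypes, where 1.04% of all tested genes were (0.652% lower, 0.39% higher). At an unadjusted p under 0.05 there were 4 subunits (4.88%), against 12.3% of all genes, and DESeq2 called 2. The groups overlapped for every tested subunit, where 0.841% of all genes lay wholly lower and 0.9% wholly higher. The median log2 difference was 0.01, with 43 subunits higher and 39 lower. The largest differences by p were those of Cox7b2, an isoform of subunit 7B, Ndufb3, a membrane-arm accessory subunit of complex I, and Atp5j, coupling factor 6 in the stalk of the ATP synthase. Cox7b2 was at 1.47 to 3.84 CPM in 6 C9-BACexp libraries and at 2.43, 3.95 and 26.4 CPM in C57BL/6J (log2 fold change -1.86, SE 0.54, adjusted p = 0.0726), so that a single C57BL/6J library, replicate 2, was high. Ndufb3 differed by -0.61 (SE 0.19, adjusted p = 0.0967) and Atp5j by -0.46 (SE 0.18, adjusted p = 0.196).

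**Figure D4:**
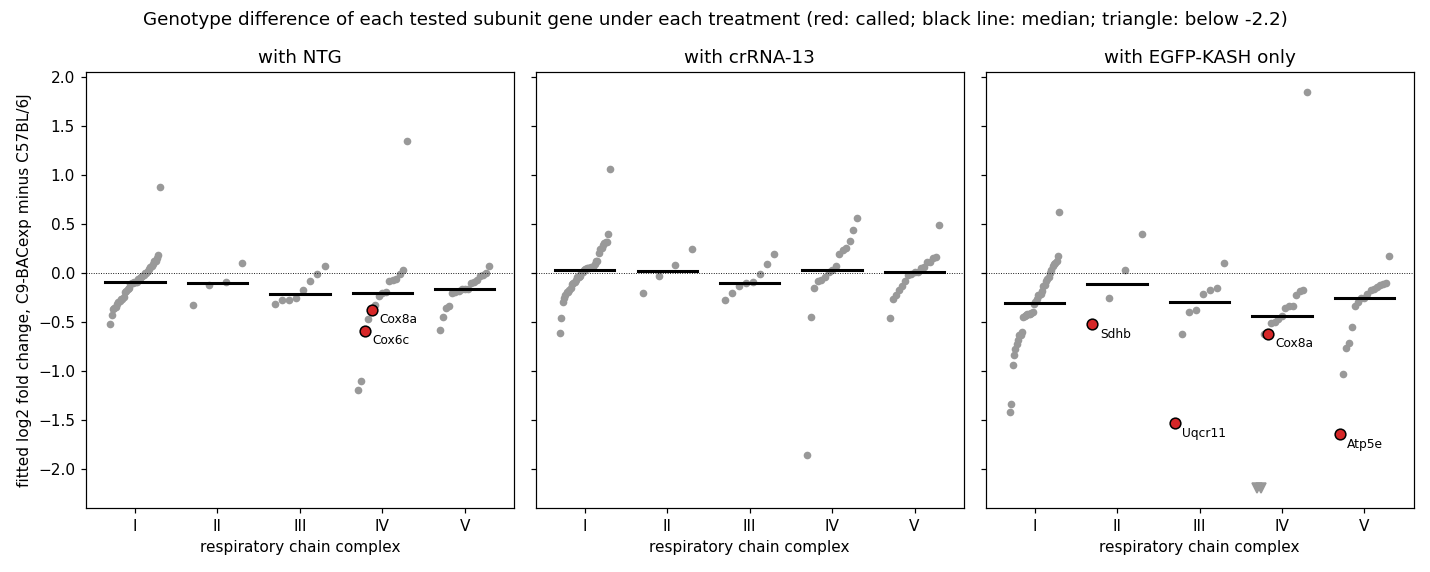
Fitted log2 fold change of each tested subunit gene, C9-BACexp minus C57BL/6J (y axis), by complex (x axis), under each treatment. Red points are called subunits, black lines are medians of the complex, and triangles mark values below the plotted range. Complex medians lie between -0.44 and -0.11 with EGFP-KASH only, between -0.21 and -0.10 with NTG and between -0.10 and 0.03 with crRNA-13.

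Whether the genotype difference itself differed between crRNA-13 and NTG was tested directly. No subunit was called by edgeR, and 1 gene of all tested was, lower (0.00459%). The median of this difference was 0.15 over the subunits, against -0.03 over all genes, and 65 of 82 were above 0. Atp5pb, subunit b of the ATP synthase stalk, came first (0.32, SE 0.12, adjusted p = 0.325), then Ndufb3 (-0.58, adjusted p = 0.418) and Cox7c (0.48, adjusted p = 0.425). An unadjusted p under 0.05 was found for 8 subunits (9.76%), near the 10.4% of all genes, and DESeq2 called 0. Without C57BL/6J NTG replicate 5 the median was 0.0080.

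Averaged over the 3 treatments, 10 subunits were called lower in C9-BACexp and none higher. Of all tested genes, 9.72% were called, 4.81% lower and 4.91% higher. The 10 of 82, all lower, are near the share called in either direction and above the share called lower. An unadjusted p under 0.05 was found for 26 subunits (31.7%), against 29.2% of all genes. The median log2 difference was -0.17 against -0.02 for all genes, and 72 of 82 were lower (87.8%, against 52.8%). Complex I gave Ndufs4, Ndufb1 and Ndufb3, complex IV gave Cox8a, Cox6c, Cox7a2 and Cox7b2, and complex V gave Atp5md, Atp5j and Atp5l, while complexes II and III gave none. Ndufb1 and Ndufb3 are membrane-arm accessory subunits, Cox7a2 is the widely expressed isoform of subunit 7A, and Atp5md and Atp5l are small subunits of the membrane part of the ATP synthase.

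In each of these comparisons the mean is that of the 3 group means. Ndufs4, on chromosome 13 (114421982 to 114524794), averaged 51.5 CPM in C9-BACexp and 65.7 CPM in C57BL/6J (log2 fold change -0.32, SE 0.065, adjusted p = 0.00198). Its C57BL/6J libraries with EGFP-KASH only were at 41.4, 47.8, 84.7 and 87.7 CPM, so they lay on both sides of the C9-BACexp values of 43.2, 45.6 and 52.3 CPM. Cox8a averaged 8.53 CPM and 11.2 CPM (-0.35, SE 0.065, adjusted p = 0.00104), and Atp5md 8.11 CPM and 13.2 CPM (-0.63, SE 0.15, adjusted p = 0.00576). Atp5md was lower in C9-BACexp under each treatment, by -0.59 with NTG (adjusted p = 0.183), -0.27 with crRNA-13 (adjusted p = 0.666) and -1.03 with EGFP-KASH only (adjusted p = 0.0599). With EGFP-KASH only its libraries were at 4.28, 8.67 and 11.7 CPM against 12.9, 15.9, 18.7 and 20.5 CPM. These 3 calls held when any 1 of the 27 libraries was left out, but not without the 4 factors, where the log2 fold changes were -0.35 for Ndufs4 (adjusted p = 0.126), -0.38 for Cox8a (adjusted p = 0.277) and -0.67 for Atp5md (adjusted p = 0.0695).

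The other 7 had adjusted p-values from 0.0104 for Cox6c to 0.0474 for Atp5j and log2 fold changes from -1.08 (SE 0.32) for Cox7b2 to -0.30 (SE 0.10) for Atp5l. Cox7b2 was led by 2 libraries, C57BL/6J NTG replicate 5 at 18.8 CPM and C57BL/6J crRNA-13 replicate 2 at 26.4 CPM, where no other library passed 5.16 CPM. Leaving out each library in turn, Cox6c, Ndufb3 and Cox7b2 stayed called in 23 of 27 fits each, Ndufb1 in 22, Cox7a2 in 17, Atp5j in 13 and Atp5l in 11, with adjusted p up to 0.188 for Atp5j. The Cox7b2 call was lost without C57BL/6J crRNA-13 replicate 2, where its log2 fold change was -0.51. It was also lost without C9-BACexp EGFP-KASH only replicate 3 or 5 or C57BL/6J EGFP-KASH only replicate 4 (adjusted p up to 0.144). The Cox6c and Ndufb1 calls were lost without C9-BACexp EGFP-KASH only replicate 3, C57BL/6J EGFP-KASH only replicate 4 or 5 or C57BL/6J NTG replicate 5, and that of Ndufb1 also without C57BL/6J crRNA-13 replicate 2. The Ndufb3 call was lost without replicate 5 of either EGFP-KASH only group, of C57BL/6J NTG or of C57BL/6J crRNA-13. Left out alone, C57BL/6J EGFP-KASH only replicate 4, its replicate 5 or C57BL/6J NTG replicate 5 took the count of called subunits from 10 to 4, and C57BL/6J EGFP-KASH only replicate 2, the library with the least subunit RNA, took it to 21. Without both C57BL/6J EGFP-KASH only replicates 4 and 5 it was 1, Atp5md.

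**Figure D5:**
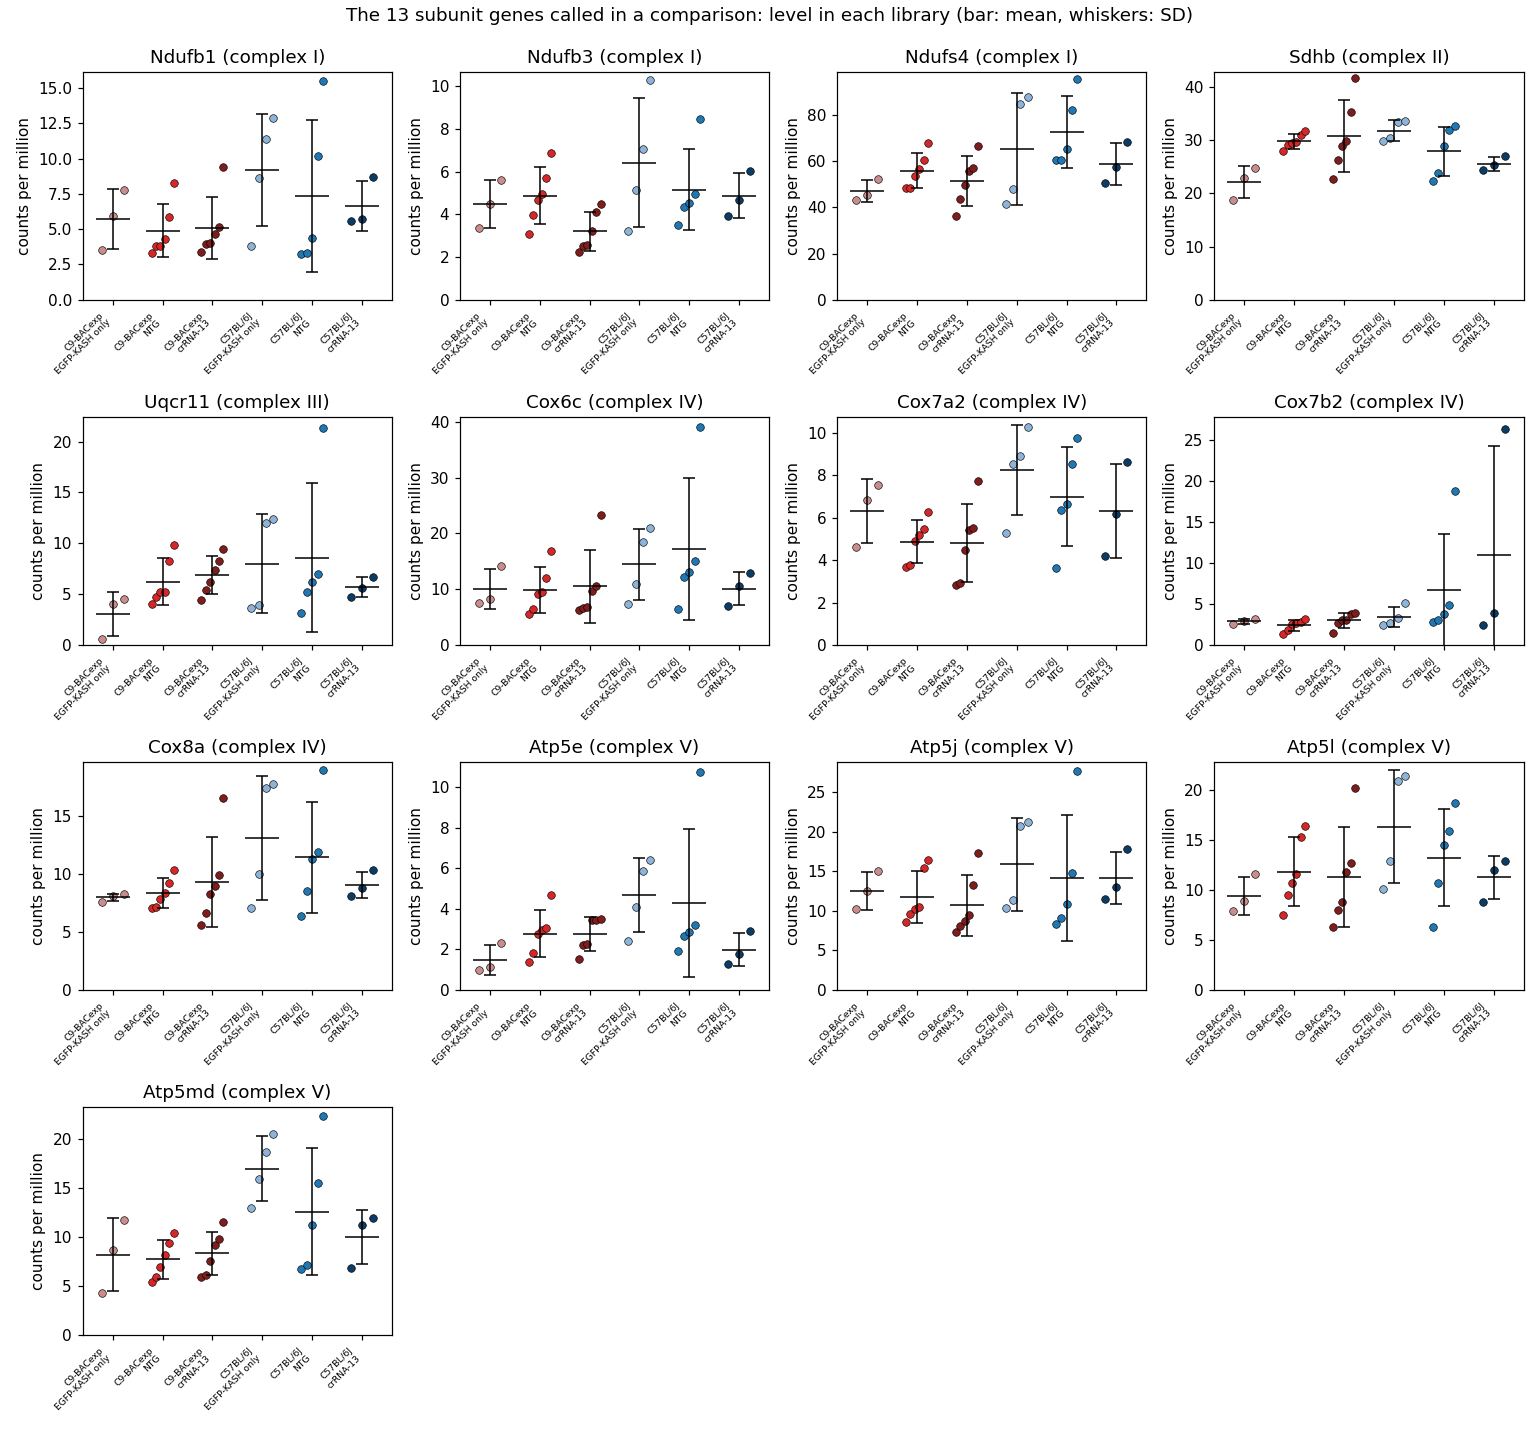
CPM (y axis, from 0) of the 13 subunit genes called in at least 1 comparison, 1 point per library, by group (x axis), with group means as bars and SD as whiskers (not drawn below 0). C57BL/6J NTG replicate 5 is the highest point of its group for Cox6c (39.1 CPM), Uqcr11 (21.4 CPM), Atp5e (10.7 CPM) and Cox7b2 (18.8 CPM).

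Within C9-BACexp, the treatments asked what the nuclease with either CRISPR RNA did to expression. From NTG to crRNA-13, 1 subunit was called, Ndufb3, where 0.478% of all tested genes were (0.239% lower, 0.239% higher). It was lower with crRNA-13, at 2.25, 2.53, 2.59, 3.22, 4.13 and 4.50 CPM, than with NTG, at 3.06, 3.95, 4.69, 4.98, 5.71 and 6.86 CPM (log2 fold change -0.62, SE 0.16, adjusted p = 0.0408), and the groups overlapped. The median of the subunits was -0.02 against -0.03 for all genes, 4 subunits (4.88%) had an unadjusted p under 0.05, where 10.3% of all genes had, and none had groups that did not overlap, where 0.165% of all genes lay wholly lower and 0.115% wholly higher. Ndufs1, the largest core subunit of complex I, and Atp5h, a stalk subunit of the ATP synthase, came next at -0.16 (adjusted p = 0.263) and -0.24 (adjusted p = 0.285). Adjusted within this comparison alone, Ndufb3 was not called, nor was it with any 1 of 8 libraries left out, which were C9-BACexp NTG replicates 1, 3, 4 and 5 and C9-BACexp crRNA-13 replicates 1, 2, 3 and 6 (adjusted p up to 0.116).

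From EGFP-KASH only to crRNA-13 in C9-BACexp, 2 subunits were called higher, where 0.864% of all tested genes were called (0.593% higher, 0.271% lower). Sdhb rose from 18.9, 22.9 and 24.8 CPM to 22.8, 26.3, 29.0, 29.8, 35.4 and 41.7 CPM (log2 fold change 0.45, SE 0.11, adjusted p = 0.0267), and Uqcr11 from 0.559, 4.03 and 4.53 CPM to between 4.45 and 9.42 CPM (1.52, SE 0.37, adjusted p = 0.0329). Sdhc, a membrane anchor of complex II, followed with -0.65 (SE 0.18, adjusted p = 0.0647). The Sdhb call ended without C9-BACexp EGFP-KASH only replicate 2 or 5 or crRNA-13 replicate 1 or 2 (adjusted p up to 0.210), and the Uqcr11 call without EGFP-KASH only replicate 2 or 5 (0.251). At an unadjusted p under 0.05 there were 12 subunits (14.6%), against 12% of all genes, and the groups overlapped for every tested subunit, where 0.854% of all genes lay wholly higher and 0.721% wholly lower. These calls use the same EGFP-KASH only libraries as the genotype comparison above. With NTG in place of crRNA-13, no subunit was called by edgeR (0.0322% of all genes were, 0.023% higher and 0.00919% lower). Sdhb was then at 28.0 to 31.8 CPM with NTG, wholly above EGFP-KASH only (0.43, SE 0.11, adjusted p = 0.145), the only tested subunit to lie so, where 1.09% of all genes did, and none lay wholly below, where 1.05% did. Uqcr11 (1.35, adjusted p = 0.179) and Ndufa5 (0.53, adjusted p = 0.326) followed. At an unadjusted p under 0.05 there were 12 subunits, against 11.1% of all genes, and DESeq2 called 2.

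Within C57BL/6J, which has no human C9ORF72, no subunit was called by edgeR between any treatments. From NTG to crRNA-13, where the limits were stricter, 0 of all tested genes were called (0%). The study, with limma-trend and its own factors, does report genes that passed these limits in this comparison. The median of the subunits was -0.15 against 0.00 for all genes, 67 of 82 were lower, and 12 (14.6%) had an unadjusted p under 0.05, as 11% of all genes did. DESeq2 called 0 subunits too, and no subunit had groups that did not overlap, where 1.27% of all genes lay wholly lower and 1.51% wholly higher. Without C57BL/6J NTG replicate 5 the median was -0.045 and without replicate 3 it was -0.28. Atp5pb (-0.35, SE 0.091, adjusted p = 0.0948), Sdha, the flavoprotein of complex II (-0.24, SE 0.071, adjusted p = 0.151), and Cox6c (-0.53, SE 0.18, adjusted p = 0.246) came first. From EGFP-KASH only to crRNA-13, 0.413% of all genes (0.0735% lower, 0.34% higher) and no subunit were called, the median was -0.28 and 73 of 82 were lower. A further 5 subunits, Atp5md, Ndufb7, Sdhb, Atp5mpl and Ndufs7, lay wholly below, where 2.32% of all genes did, and none wholly above, where 2.58% did. Cox5b (-0.58, adjusted p = 0.0971), Cox6a1 (-0.59, adjusted p = 0.155) and Cox8a (-0.44, adjusted p = 0.163) had the smallest p-values, 23 subunits (28%) had an unadjusted p under 0.05, against 11.2% of all genes, and DESeq2 called 3. From EGFP-KASH only to NTG, no gene was called (0%), the median of the subunits was -0.07, 7 subunits (8.54%) had an unadjusted p under 0.05, against 7.79% of all genes, and DESeq2 called 0. The groups overlapped for every tested subunit, where 0.423% of all genes lay wholly lower and 0.418% wholly higher. Ndufb9 came first (-0.57, SE 0.16, adjusted p = 0.492), followed by Ndufs5 (-0.85, adjusted p = 0.498) and Ndufb5 (-0.47, adjusted p = 0.512). Without C57BL/6J EGFP-KASH only replicates 4 and 5, these last 2 comparisons had medians of 0.11 and 0.30, and 6 subunits were called higher with NTG than with EGFP-KASH only. Left out alone, replicate 2 took the medians to -0.48 and -0.28 and replicate 5 took them to -0.11 and 0.06.

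Fixed examples of each complex, catalytic, core and accessory, were followed whatever their values. Ndufs1 was at 44.6 ± 4.34 CPM (n = 6) in C9-BACexp NTG and 44.3 ± 5.25 CPM (n = 5) in C57BL/6J NTG, and Ndufv1 at 23.2 ± 1.27 CPM and 23.2 ± 1.85 CPM. Their log2 fold changes were 0.02 and -0.00 with NTG. Sdha was at 53.9 ± 5.21 CPM and 59.1 ± 7.74 CPM. Uqcrc1, a core subunit of complex III, differed by -0.08, and Uqcrc2, the other core protein and named after its values were seen, was at 28.3 CPM in C9-BACexp against 35.3 CPM (-0.28, SE 0.10, adjusted p = 0.175). Ndufa9 differed by -0.11, and Ndufb8 by -0.43. Of the ATP synthase's catalytic ring, Atp5b (beta subunit) differed by -0.07 and Atp5a1 (alpha) by -0.18. With EGFP-KASH only, the log2 fold changes were 0.03 for Ndufs1, 0.03 for Sdha, -0.12 for Ndufv1, -0.15 for Uqcrc1, -0.16 for Atp5b and -0.14 for Atp5a1, but -0.63 for Uqcrfs1, the Rieske iron-sulfur protein, and -0.40 for Uqcrc2 (24.4 CPM against 32.8 CPM, adjusted p = 0.122). With NTG, Uqcrfs1 was at 3.06 ± 0.638 CPM in C9-BACexp and 2.98 ± 1.05 CPM in C57BL/6J. None of the subunits with values in this paragraph was called with NTG or EGFP-KASH only. Of the other fixed examples, Sdhb, the catalytic iron-sulfur subunit of complex II, was called lower with EGFP-KASH only, and Cox6c was called lower with NTG, as given above. Averaged over the treatments, Uqcrc2 passed the limit on p but not that on fold (-0.23, SE 0.069, adjusted p = 0.0271).

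Complex IV exists in tissue isoforms, and the widely expressed forms made up most of its RNA here. Cox4i1 averaged 13.6 CPM over 27 libraries, Cox6a1 8.54 CPM, Cox6b1 13.5 CPM, Cox7a2 6.08 CPM and Cox7b 10.2 CPM. Cox7a2l, which is named only as like subunit 7A2, averaged 16.0 CPM. The heart and muscle isoforms Cox6a2 and Cox7a1 averaged 0.250 CPM and 0.487 CPM, and Cox4i2 averaged 0.216 CPM and was at 0 in 10 libraries. At these levels the libraries of a group ranged widely, as from 0 to 1.71 CPM for Cox4i2 in C57BL/6J EGFP-KASH only. No comparison called Cox6a2, Cox7a1 or Cox4i2. Cox7b2, the second isoform of subunit 7B, was not as low, with a mean of 4.46 CPM and libraries from 1.39 to 26.4 CPM. It was called lower in C9-BACexp in the averaged genotype comparison, as given above. The 6 genes that failed the filter were Cox8b, with at most 3 counts in a library, Cox8c, Ndufb4b and Ndufs6b, at 0 in all 27 libraries, Cox6b2, with at most 16 counts, and Ndufa11b, with at most 69. Ndufb4b and Ndufb4c, Ndufa11b and Ndufs6b are near copies of Ndufb4, Ndufa11 and Ndufs6, so values within these sets are uncertain. Ndufb4 had the lowest log2 fold change of complex I in the averaged genotype comparison (-0.59, SE 0.34, adjusted p = 0.259) and Ndufb4c the highest (0.85, SE 1.72, adjusted p = 0.793), from a gene at 0 in 19 of 27 libraries. In complex II the extremes were Sdhd (-0.27, adjusted p = 0.134) and Sdhc (0.09, adjusted p = 0.642), in complex III Uqcr11 (-0.55, adjusted p = 0.0600) and Uqcrc1 (-0.05, adjusted p = 0.628), in complex IV Cox7b2 and Cox7a1 (0.43, adjusted p = 0.611), and in complex V Atp5md and Atp5j2 (0.04, adjusted p = 0.854).

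Subunit genes are short. The 79 tested ones with a GENCODE position had a median span of 9065 bases, against 26729 bases for all tested genes with one. Genes of similar span were compared in 5 ranges, divided at 5000, 10000, 20000 and 50000 bases, which held 20, 26, 17, 13 and 3 subunit genes. With EGFP-KASH only, the median log2 differences of the subunits were -0.35, -0.38, -0.30, -0.18 and -0.34 from the shortest range to the longest, against -0.095 to 0.0038 for other genes of the same ranges. With NTG they were -0.17, -0.073, -0.10, -0.11 and -0.36, against 0.0053 to 0.048. With crRNA-13 they were 0.088, 0.0017, 0.029, -0.038 and -0.20, against -0.015 to 0.025. In these fits of all libraries the subunits were the lower set in every range under the first 2 treatments and on both sides under crRNA-13. The ranges were not refitted without the high C57BL/6J libraries named above. Without C57BL/6J NTG replicate 5 the median of all tested subunits with NTG went from -0.12 to 0.02. The part of gene span in the differences was not tested. Several called subunits overlap a protein-coding gene on the opposite strand, and the strand setting of the counting is not given in the sources used here. Vps13b, over Cox6c, differed by 0.08 with NTG (adjusted p = 0.600), Cpsf2, beside Ndufb1, by -0.19 averaged over the treatments (adjusted p = 0.0919), and Jam2, over Atp5j, by -0.76 (adjusted p = 0.000372), a call in the same direction as that of Atp5j. Gabpa, which also overlaps Atp5j, differed by -0.17 averaged (adjusted p = 0.165) and was not called. Cox8a, Uqcr11, Sdhb, Ndufb1 and Atp5l overlap long non-coding RNA genes on the opposite strand, which were not compared here. The one over Cox8a, Gm59070, covers all of its 2483 bases.

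The rest of the pathway was read from lists that also cover assembly, supply and control, and their calls stand beside 6.49% of all tested genes called with NTG, 2.73% with EGFP-KASH only and 9.72% averaged. Of 51 tested assembly factors, 1 was called with NTG, Coa5, a complex IV assembly factor, lower in C9-BACexp (log2 fold change -0.45, SE 0.11, adjusted p = 0.0366), and none with EGFP-KASH only or averaged. Of 18 genes of the tricarboxylic acid cycle, which feeds the chain, Dlat, a subunit of pyruvate dehydrogenase, was called lower with NTG (-0.40, adjusted p = 0.0278), Mdh2, malate dehydrogenase, with EGFP-KASH only (-0.45, adjusted p = 0.0143) and Suclg2, a subunit of succinyl-CoA ligase, averaged (-0.50, adjusted p = 0.00778), and none higher. Of 15 electron carrier genes, Pdss1, which starts the side chain of coenzyme Q, was called lower averaged (-0.28, adjusted p = 0.00998). Among 18 regulators of mitochondrial biogenesis, Polrmt, the mitochondrial RNA polymerase, was called higher with NTG (0.36, SE 0.090, adjusted p = 0.0320) and averaged (0.28, adjusted p = 0.00273), and Mterf3, a repressor of mitochondrial transcription, lower averaged (-0.27, adjusted p = 0.0499). Median log2 differences of the assembly factors and of the tricarboxylic acid cycle genes were -0.06 and -0.13 with NTG, where that of the subunits was -0.12. With EGFP-KASH only they were -0.13 and -0.10, less far from 0 than the subunits' -0.31. The ribosomal protein genes, at -0.30, were near the subunits there. Of 11 nuclear long non-coding RNAs, Neat1 was called higher with NTG (1.28, adjusted p = 0.00499) and Rian lower (-0.35, adjusted p = 0.0143), and Neat1 was also called higher averaged (0.80, adjusted p = 0.00128). Of 83 tested ribosomal protein genes, none was called with NTG (median -0.01) and 4, Rpl32, Rpl7, Rps15 and Rps20, were called lower with EGFP-KASH only (median -0.30). Averaged, Rpl5 (-0.27, adjusted p = 0.0484) and Rps15a (-0.33, adjusted p = 0.00490) were called lower (median -0.093), and from EGFP-KASH only to crRNA-13 in C57BL/6J Rplp2 was (-1.02, adjusted p = 0.0463), where 0.413% of all genes were called.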

How the data were processed

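Nuclear RNA of sorted EGFP-KASH+ nuclei was sequenced after ribosomal RNA depletion. The authors estimated counts with Salmon 1.10.0 on spliced and unspliced transcripts (annotation release 109, GRCm39 as decoy) and tximport in R 4.3.1, and the deposited table holds these estimated (expected) counts per gene. No column of another sample was present. Here counts were rounded and genes filtered (filterByExpr, minimum count 10, minimum total 15). One edgeR 4.0.16 quasi-likelihood model in R 4.3.3 held the 6 groups, TMM scaling and 4 factors of unwanted variation from residuals, and gave 11 comparisons. P-values were adjusted by Benjamini-Hochberg over 5 comparisons together and within each of the others. SE is the log2 fold change over the square root of F. Calls needed a fold change over 1.2 and adjusted p under 0.05 (1.25 and 0.01 for crRNA-13 against NTG in C57BL/6J). The authors' mark of kept genes was not used. The main test was the count model, where the study used limma-trend, which was an alternative (limma 3.58.1), as was DESeq2 1.42.0. The model was tested on simulated counts drawn independently for each gene and library. These lack the shared shifts between libraries described above, so the simulation cannot show how the 4 factors act on such shifts.

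The members and lists were chosen with earlier results of these data known. Named genes were all called members, fixed examples, complex IV isoforms, the 3 smallest p-values in each comparison, members that failed the filter, called genes of the other lists, and the extremes of each complex. Positions are from GENCODE vM39. The study describes nuclei of single animals as its sequenced samples, so replicates were taken as separate mice; the labels themselves name no animal. Replicate numbers were not treated as pairs: deviations of the 48 same-numbered pairs correlated from -0.162 to 0.286 (median -0.00307), with 10 above 0.1. Totals of 21508829 to 36777972 counts left low subunits such as Cox4i2 with few counts. A promoter or protein sequence not in the tables used here was not printed. One member is counted in the totals but not reported here by name or drawn in the heat map.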

Additional observations from a re-analysis of the deposited data

Results flagged for a closer look

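Within groups of 4 to 6 libraries, 76 sets of values (the subunits' summed CPM, that of each complex and the 13 called subunits) were examined for a highest or lowest library far from the rest by Dixon's 95% limit, which chance passes in about 1 group in 20. In all, 7 passed it, all for a high library. In C57BL/6J NTG (n = 5), replicate 5 stood apart for Cox6c (39.1 CPM, next 14.96), Uqcr11 (21.4 CPM, next 7.01), Atp5e (10.7 CPM, next 3.22) and Cox7b2 (18.8 CPM, next 4.83). In C9-BACexp crRNA-13 (n = 6), replicate 1 stood apart for the summed CPM of complex IV (181 CPM, next 120), Cox6c (23.3 CPM, next 10.6) and Ndufb1 (9.39 CPM, next 5.17). Both libraries are among the 5 with the most subunit and ribosomal protein RNA.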

How the results depend on the processing

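Depth and group sizes of 3 to 6 limit what a subunit at a few CPM can show. Counts of called subunits depended on the 4 factors: without them 0 subunits were called in every comparison. Values in this paragraph are counts of called subunits. With the replicate number as a block there were 0 with NTG (2 before), 0 from NTG to crRNA-13 in C9-BACexp (1), 1 from EGFP-KASH only to crRNA-13 in C9-BACexp (2), 3 in 1 of the comparisons within C57BL/6J (0) and 3 averaged over treatments (10), with Ndufs4 and Atp5md but not Cox8a among them. Limma-trend gave 1 with NTG and 7 with EGFP-KASH only (4). DESeq2 gave 2 with crRNA-13 (0), 9 with EGFP-KASH only, 2 from EGFP-KASH only to NTG in C9-BACexp (0) and 3 from EGFP-KASH only to crRNA-13 in C57BL/6J. Without the filter there were 1 with NTG and 0 from NTG to crRNA-13 in C9-BACexp. Adjusted within each comparison alone, the C9-BACexp comparisons of crRNA-13 with NTG and with EGFP-KASH only gave 0 each. Without C9-BACexp NTG replicates 1 and 6, chosen after seeing the data, crRNA-13 against NTG gave 0. Without C57BL/6J EGFP-KASH only replicates 4 and 5, also chosen after seeing the data, there were 1 with EGFP-KASH only, 1 averaged and 6 from EGFP-KASH only to NTG in C57BL/6J, and the median log2 differences were 0.054 with EGFP-KASH only, 0.11 from EGFP-KASH only to crRNA-13 in C57BL/6J and 0.30 from EGFP-KASH only to NTG. The cause was not tested.

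Leaving out 1 library at a time, the count ran from 0 (without C57BL/6J NTG replicate 5 or C9-BACexp NTG replicate 2 or 4) to 6 (without C57BL/6J NTG replicate 3) with NTG, from 0 to 1 with crRNA-13 (1 without C57BL/6J crRNA-13 replicate 1 or 5), from 1 to 19 with EGFP-KASH only (19 without C57BL/6J EGFP-KASH only replicate 2, 1 without its replicate 4 or 5), from 0 to 1 from NTG to crRNA-13 in C9-BACexp, from 0 (without EGFP-KASH only replicate 5) to 3 (without crRNA-13 replicate 4) from EGFP-KASH only to crRNA-13 in C9-BACexp, and from 4 to 21 averaged. From EGFP-KASH only to crRNA-13 in C57BL/6J it ran from 0 to 5 (without EGFP-KASH only replicate 2). In the other treatment comparisons within C57BL/6J it stayed at 0. No called subunit changed direction under any alternative run.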
